A study of Mus musculus with 40 samples.

Results

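Luminal cells of the adult mouse mammary gland were compared between proestrus and the rest of the estrous cycle, using the 8 luminal libraries among 40 libraries in the series, 32 of them from adult mice. The 2 proestrus libraries, replicate 1 and replicate 2, were set against 6 libraries from the other stages, namely 2 in estrus, 2 in metestrus and 2 in diestrus. All came from wildtype virgin female mice of the inbred strain FVB/N aged 14 to 16 weeks, staged by vaginal cytology, with no allele or agent added in any group. Each library pooled luminal cells from 2 or 3 mice (mammary glands 3 and 4 of each), sorted as lineage-negative cells high for EpCAM and intermediate for CD49f after cells bearing CD45, CD31 or Ter119 had been gated out. Replicate numbers were assigned within a stage from early to late where cytology and histology allowed it and otherwise by cell number, so the p-values measure the spread between these pools. The sort keeps all luminal cells together, and in such bulk samples fewer cells of a type and less RNA per cell cannot be told apart.

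The estrous cycle takes the ovary from follicle growth, with estrogen rising through proestrus, to ovulation and then to a corpus luteum that secretes progesterone in metestrus and diestrus. Luminal cells line the mammary ducts. A hormone-sensing subset carries the estrogen, progesterone and prolactin receptors and signals to its neighbours, while receptor-negative luminal progenitors give rise to the cells that make milk. The comparison asks which luminal genes set proestrus apart from the other stages.

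The 8 libraries held between 16832957 and 22760563 counts, and 12306 genes passed a minimum of 1 CPM (counts relative to the library's total) in at least 2 libraries. All values below are CPM scaled by trimmed mean of M-values unless stated otherwise. The luminal identity of the samples was plain: Krt18, a simple epithelial keratin, averaged 6168 CPM in luminal and 297 CPM in basal libraries, whereas Krt14, the basal keratin, averaged 10.8 CPM in luminal and 6072 CPM in basal libraries on a scale common to all adult libraries. The 2 proestrus libraries were each other's nearest neighbour over all tested genes, and so were the 2 estrus libraries. Diestrus replicate 1 stood apart, with 10862 CPM of Lars2 against 1468 to 2470.4 CPM in the other 7 luminal libraries, and 1645 CPM of the milk protein gene Csn2 against 30.5 to 236 CPM in those 7. Over all genes, the rank correlation of a library's deviation with transcript GC content was 0.16 and 0.23 in the 2 proestrus libraries, against −0.29 to 0.11 in the others (a fit with offsets for it is given with the counts of calls).

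At an adjusted p under 0.05 (edgeR's quasi-likelihood test with Benjamini-Hochberg adjustment over 12306 genes), 47 genes were higher in proestrus luminal cells, 0.382% of the genes tested, and 11 were lower, 0.0894%. All 58 were called from 2 proestrus libraries against 6, with the mean of the other 3 stages as the reference. Of the 47 genes that rose, 46 had both proestrus libraries above all 6 others, which also held for 8.98% of all genes tested, and the exception was Muc13, a membrane mucin named after its values were seen. All 11 genes that fell had both proestrus libraries below all 6 others, against 7.68% of all genes. The median log2 fold change was 1.08 among the genes that rose and −1.29 among those that fell, and 27 of the 47 and 8 of the 11 changed by more than 1 on the log2 scale. The largest change was a rise of 5430419D17Rik, annotated as protein coding and named after its values were seen. It had 123.6 and 111.8 CPM in proestrus against at most 9.66 CPM elsewhere (4.74 ± 0.53, adjusted p = 0.011 by edgeR). Replicate 1 was the higher of the 2 proestrus libraries for 38 of the 47 genes, which was the case for 49.2% of all genes tested. Estrus was the stage closest to proestrus for 30 of the 47, metestrus for 11 and diestrus for 6; among all 1105 genes with both proestrus libraries on top, estrus was closest for 44.7%. The counts of called genes depended on single libraries. Without proestrus replicate 1, where the lone remaining proestrus library is assumed to vary like the other groups, edgeR called 0 genes (646 at an unadjusted p under 0.05; DESeq2 called 31 higher and 28 lower), and without proestrus replicate 2 it called 15 higher and 0 lower. Without estrus replicate 1 or 2 it called 24 and 19 higher and 4 and 2 lower, and without metestrus replicate 1 or 2 it called 18 and 24 higher and 3 and 6 lower. Without diestrus replicate 1 it called 82 higher and 22 lower, and without diestrus replicate 2 it called 165 and 35, which included all 58 genes. All 58 genes kept their direction in each of the 17 alternatives. Pcx, P4ha2, Olfml3, Cryz, Fam20a, Prom2, Ggt1 and Slc16a3 passed in each of these except without proestrus replicate 1. With offsets for GC content and transcript length, an alternative chosen after seeing the data, 35 of the 47 and 7 of the 11 genes still passed. Median GC content was 53.3% among genes that rose, 52.3% among genes that fell and 49.8% among all tested.

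**Figure D1:**
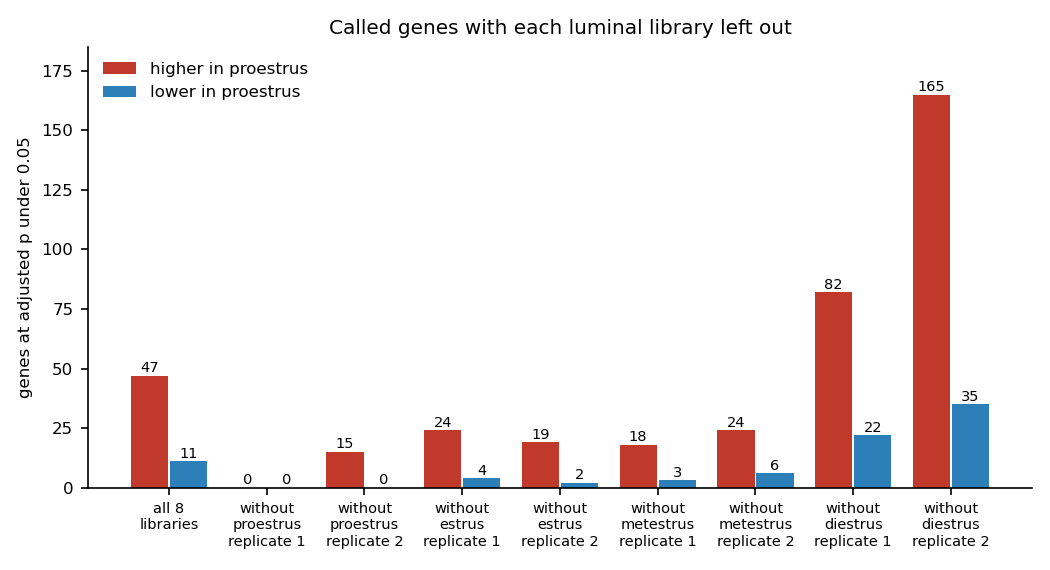
Genes at an adjusted p under 0.05 in the luminal contrast with all 8 libraries and with each library left out (red, higher in proestrus; blue, lower). The count is 0 without proestrus replicate 1 and 165 higher without diestrus replicate 2.

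**Figure D2:**
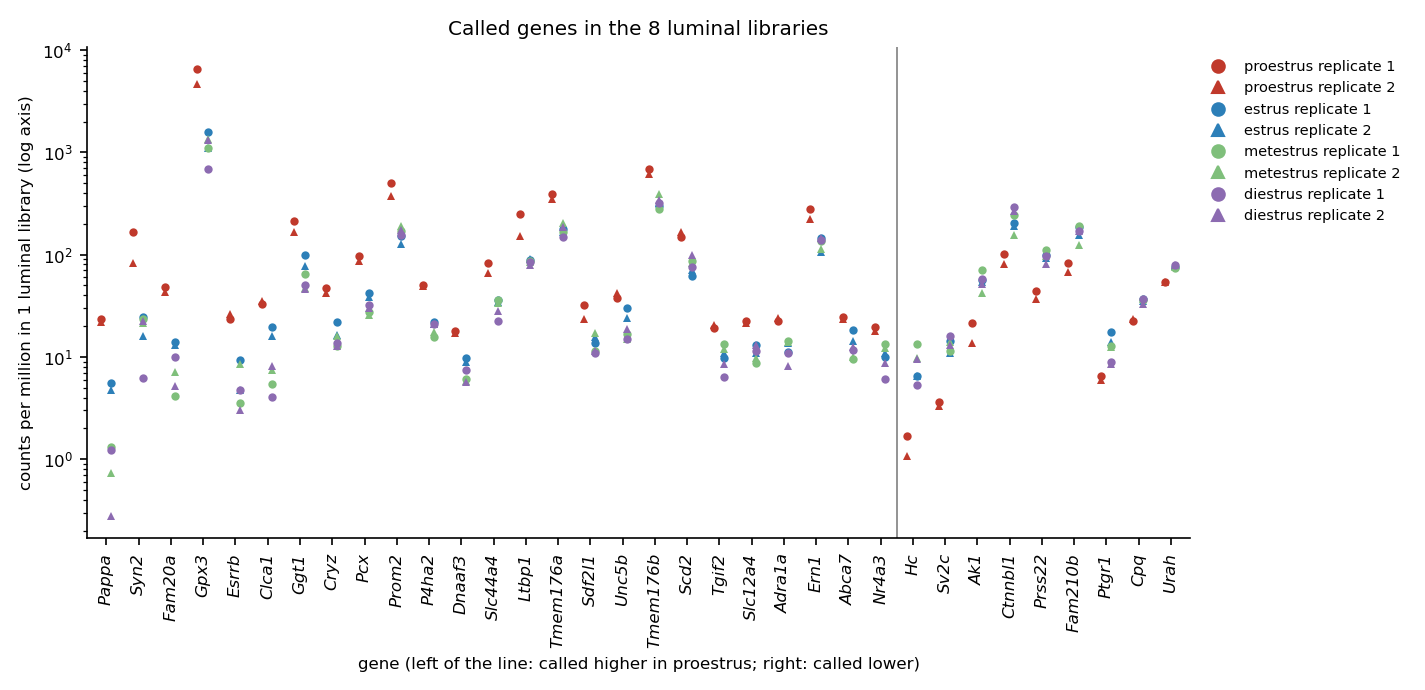
Expression of the called luminal genes named by rule, in CPM on a log axis, with 1 point per library (circles, replicate 1; triangles, replicate 2; red, proestrus; other colours, the other stages). For each gene shown the 2 proestrus libraries lie outside the range of the 6 other libraries, including Gpx3, with 6474 and 4647 CPM in proestrus and at most 1594 CPM elsewhere.

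The promoters of 4 of the genes that rose are printed here because these genes had the smallest p among called genes with a promoter in the RefSeq table (45 of 58 had one). Each sequence is the 250 bases before a start that the RefSeq table gives on GRCm38.p6, written 5′ to 3′ on the gene's strand. It overlaps no annotated exon of its own gene, and exons of other genes were not checked. Pcx and Cryz had 2 starts each, and the window with the least overlap with exons of the gene was printed. For P4ha2 the RefSeq start lies inside the gene as GENCODE annotates it (chr11:54100095-54131665), so its window is within that gene model. Capitals mark matches, on either strand, to the site GGTCA, the hormone response element ACANNNTGT, the CCAAT box CCAAT, the E-box CACGTG, the GC box GGGCGG, or the estrogen response element made of GGTCA and its reverse complement with 3 bases between them.
Pcx (chr19:4510222-4510471, + strand): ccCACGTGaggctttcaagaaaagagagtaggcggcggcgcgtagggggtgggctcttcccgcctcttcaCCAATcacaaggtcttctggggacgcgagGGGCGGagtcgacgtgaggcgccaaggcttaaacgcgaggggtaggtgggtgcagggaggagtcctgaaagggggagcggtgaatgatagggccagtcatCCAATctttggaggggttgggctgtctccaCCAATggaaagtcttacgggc
P4ha2 (chr11:54100674-54100923, + strand): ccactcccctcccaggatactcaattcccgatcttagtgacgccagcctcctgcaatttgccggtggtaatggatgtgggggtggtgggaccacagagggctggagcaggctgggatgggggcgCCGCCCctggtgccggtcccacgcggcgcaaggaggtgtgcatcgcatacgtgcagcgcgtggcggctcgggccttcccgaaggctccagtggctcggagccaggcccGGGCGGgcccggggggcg
Olfml3 (chr3:103738002-103738251, − strand): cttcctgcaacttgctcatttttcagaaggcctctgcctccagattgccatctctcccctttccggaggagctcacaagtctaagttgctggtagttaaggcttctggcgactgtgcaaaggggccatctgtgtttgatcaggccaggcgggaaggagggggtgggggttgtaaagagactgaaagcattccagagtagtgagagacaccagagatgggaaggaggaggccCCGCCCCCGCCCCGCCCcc
Cryz (chr3:154596461-154596710, + strand): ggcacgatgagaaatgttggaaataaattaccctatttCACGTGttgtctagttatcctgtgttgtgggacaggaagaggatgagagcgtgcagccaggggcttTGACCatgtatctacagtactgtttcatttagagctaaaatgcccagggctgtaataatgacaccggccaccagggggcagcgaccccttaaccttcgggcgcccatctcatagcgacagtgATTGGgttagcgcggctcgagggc
The Pcx window held 3 CCAAT boxes, 1 E-box and 1 GC box, and that of Cryz 1 GGTCA site, 1 CCAAT box and 1 E-box. The P4ha2 and Olfml3 windows held GC boxes alone, 2 and 3 matches with those of Olfml3 lying side by side and partly overlapping. Using the first listed promoter of each gene, GGTCA stood in 11 of 38 windows of genes that rose (28.9%) and in 32.4% of the windows of all tested genes. The GC box stood in 24 of the 38 (63.2%) and in 61.0% of those of tested genes. The complete estrogen response element stood in 0 of the 38 windows and in 0 of the 9565 windows of tested genes, and ACANNNTGT in 0 of the 38 and in 3.24% of tested genes. These matches describe the letters in the windows only.

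Pcx had the smallest p of all genes tested. It encodes the mitochondrial pyruvate carboxylase that replenishes oxaloacetate, and it had 97.4 and 87.5 CPM in the 2 proestrus libraries, against a lowest value of 25.7, a median of 31.1 and a highest value of 42.5 CPM in the 6 libraries of the other stages. The groups did not overlap, and the estrus libraries came closest to proestrus. Its log2 fold change was 1.52 ± 0.09 (SE, n = 2 and 6), with an adjusted p of 0.0011 in edgeR's quasi-likelihood test. Of the 23 tested genes of the pyruvate and citrate cycle list, Pcx alone was called, and the median log2 fold change was 0.06 against −0.0015 over all genes tested. Hexokinase 2 (Hk2), which traps glucose in the cell, had 92.0 and 75.4 CPM in proestrus against at most 55.5 CPM elsewhere but did not pass the test (adjusted p = 0.066).

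Fatty acid synthesis contributed Scd2 and Elovl6, called as higher among 21 tested list members, of which 16 had a positive log2 fold change (median 0.18). Scd2, a stearoyl-CoA desaturase, had 147 and 167 CPM in proestrus, against 61.6, 79.4 and 99.0 CPM as the lowest, median and highest value of the other libraries, a log2 fold change of 0.99 ± 0.12 (adjusted p = 0.013 by edgeR). Elovl6, which lengthens long-chain fatty acids, had 31.8 and 33.3 CPM in proestrus, against a median of 19.2 and a highest value of 23.1 CPM elsewhere. Both genes were separated from all other stages, and Scd2 passed in 12 and Elovl6 in 10 of the 17 alternative fits. Lpin1, a phosphatidate phosphatase of glyceride synthesis, had 40.1 and 36.9 CPM in proestrus and 12.4, 22.1 and 29.96 CPM as lowest, median and highest value elsewhere, without passing the test (adjusted p = 0.097). Acaca, the acetyl-CoA carboxylase that commits carbon to fatty acids, had 76.0 and 86.4 CPM in proestrus against at most 64.6 CPM and did not pass either (adjusted p = 0.097).

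All 22 tested genes of cholesterol synthesis and its control had a positive log2 fold change, with a median of 0.62 against −0.0015 over all genes, and 14 of the 22 (63.6%) had both proestrus libraries above all 6 others, against 8.98% of all genes. Only Fdps, the farnesyl diphosphate synthase of the mevalonate pathway, passed the test, with 51.5 and 58.2 CPM in proestrus and 27.9, 31.1 and 37.4 CPM as lowest, median and highest value of the other libraries (log2 fold change 0.79 ± 0.12, adjusted p = 0.043 by edgeR). Fdps passed in 10 of the 17 alternative fits. Members that missed the threshold included Ebp, a sterol isomerase, with 67.3 and 58.5 CPM in proestrus against 32.8, 40.3 and 49.3 CPM (adjusted p = 0.066). Mvk, the mevalonate kinase, had 6.26 and 4.77 CPM in proestrus against 2.32, 2.93 and 3.38 CPM (adjusted p = 0.094), and Lss, the lanosterol synthase, had 21.3 and 22.98 CPM against 8.75, 11.2 and 16.2 CPM (adjusted p = 0.11). In each of them both proestrus libraries were on top. The median over the list, relative to the mean of the other stages, was 0.61 and 0.57 on the log2 scale in the 2 proestrus libraries and between −0.22 and 0.25 in the other 6. Across the 17 alternative fits the list median ranged from 0.49 to 0.67. In basal cells the list median was −0.01, and the luminal minus basal difference had a median of 0.47, with 20 of 22 genes positive and 0 of them called (edgeR).

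**Figure D3:**
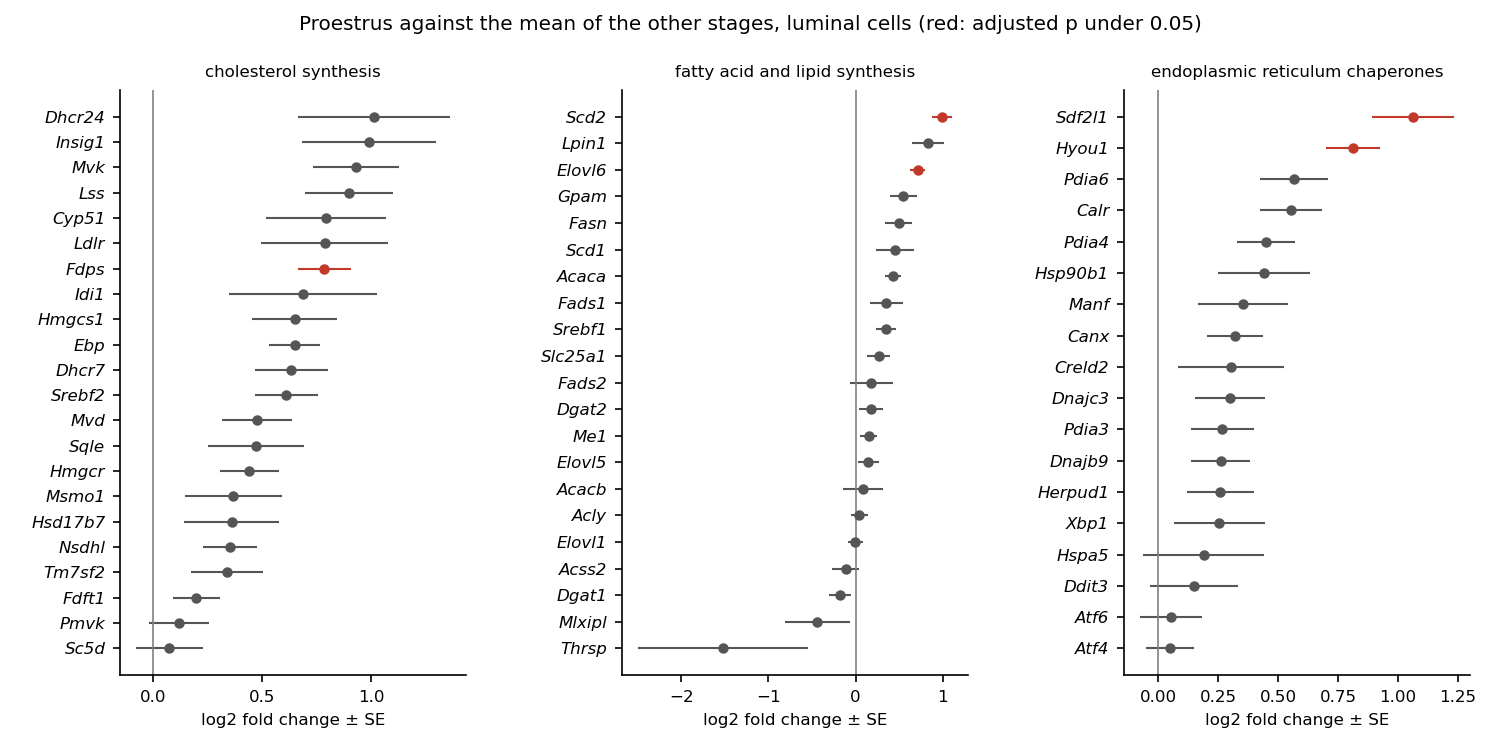
Log2 fold change of proestrus against the mean of the other stages in luminal cells, with its standard error, for each tested gene of 3 lists; red marks genes at an adjusted p under 0.05. All 22 cholesterol genes and all 18 chaperone genes lie to the right of 0, but only Fdps, Scd2, Elovl6, Hyou1 and Sdf2l1 passed the test.

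The endoplasmic reticulum list, which holds chaperones and regulators of protein folding, behaved alike in sign, with 18 of 18 tested genes positive, a median log2 fold change of 0.30 and 2 genes called as higher. Hyou1, a chaperone of the lumen, had 371 and 296 CPM in proestrus, against 169, 188 and 222 CPM as lowest, median and highest value elsewhere (log2 fold change 0.81 ± 0.11, adjusted p = 0.027 by edgeR). Sdf2l1, a partner of the chaperone BiP, had 32.1 and 23.3 CPM against 10.9, 12.5 and 17.1 CPM (1.06 ± 0.17, adjusted p = 0.048). Both calls were lost in most of the 17 alternative fits: Hyou1 passed in 7 and Sdf2l1 in 4, the fewest of the 58 called genes. Calr, the lectin chaperone calreticulin, had 1139 and 1008 CPM in proestrus against at most 827 CPM without passing (adjusted p = 0.12). Outside the list, Ern1, the stress sensor also called IRE1, had 280.6 and 225 CPM in proestrus against 107, 137 and 147 CPM. Wfs1 and Bhlha15 were chosen after their values were seen. Wfs1, a membrane protein of the endoplasmic reticulum, had 65.6 and 50.3 CPM against at most 36.5 CPM, and Bhlha15 (also called Mist1), a transcription factor of secretory cells, had 8.87 and 5.85 CPM against at most 3.72 CPM. Replicate 1 was the higher proestrus library for Hyou1, Sdf2l1, Ern1, Wfs1 and Bhlha15 alike. The list median deviation was 0.45 in replicate 1 and 0.23 in replicate 2 of proestrus and reached 0.20 in metestrus replicate 2. In basal cells the list's median log2 fold change was 0.22. The luminal minus basal difference had a median of 0.13, with 13 of 18 genes positive and 0 called (edgeR).

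Several genes of secreted and matrix proteins rose. Pappa, a secreted protease that cleaves insulin-like growth factor binding proteins (chr4:65124174-65357509), had 23.3 and 21.8 CPM in proestrus, against 0.277, 1.27 and 5.60 CPM as lowest, median and highest value of the other libraries, a log2 fold change of 3.83 ± 0.29 (adjusted p = 0.0028 by edgeR). The 2 estrus libraries, at 5.60 and 4.73 CPM, were the nearest to proestrus. Pappa was the only called gene among 14 tested members of the insulin-like growth factor axis, whose median log2 fold change was 0.34. Irs1, an adaptor of the insulin and insulin-like growth factor receptors, had 93.7 and 67.0 CPM in proestrus against at most 59.7 CPM (adjusted p = 0.087), and Irs2, its relative, had 87.0 and 87.2 CPM against at most 73.5 CPM (adjusted p = 0.20).

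Olfml3, a secreted olfactomedin-like protein, had 17.3 and 7.28 CPM in proestrus against 0.626, 0.882 and 1.07 CPM as lowest, median and highest value elsewhere (log2 fold change 3.81 ± 0.32, adjusted p = 0.0043 by edgeR). Its mean level lay below the limit for named genes, and it was chosen after its values were seen. P4ha2, a prolyl hydroxylase that prepares collagen chains for folding, had 50.1 and 49.1 CPM in proestrus against 15.8, 20.8 and 21.8 CPM (1.35 ± 0.09, adjusted p = 0.0011). Fam20a, a pseudokinase of the secretory pathway, had 48.6 and 43.3 CPM against 4.10, 8.46 and 13.8 CPM (2.47 ± 0.22, adjusted p = 0.0043). In these genes, too, the proestrus libraries lay clear of all others. Ltbp1, which binds latent transforming growth factor beta in the matrix, had 247 and 152 CPM against at most 89.8 CPM.

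On the scale common to all adult libraries, 17 of the 47 genes that rose had their highest average in luminal libraries and 9 in fat libraries. Pcx averaged 39.6 CPM in luminal and 928 CPM in fat libraries, and Elovl6 19.2 and 439 CPM. Olfml3 and Pappa are abundant in neighbouring cell types. Olfml3 averaged 234 CPM in stromal libraries and 3.10 CPM in luminal libraries, and the fibroblast marker sum was 567 and 344 CPM in the 2 proestrus luminal libraries, against 230 to 789 CPM in the others. Metestrus replicate 2 had the highest fibroblast sum of the 8 and 0.626 CPM of Olfml3, the lowest level. The sum rested mainly on Col6a3 and Dcn, and Dcn had 134 to 201 CPM in proestrus and 122 to 635 CPM in the other 6. Col1a1, a defining fibroblast gene, was between 0.881 and 1.46 CPM in all 8. Of the 10 fibroblast markers 4 passed the level filter, and of these Col6a3, a collagen chain, had 359 and 201 CPM in proestrus against at most 147 CPM (adjusted p = 0.13 by edgeR), and Pdgfra 4.17 and 5.28 CPM against at most 3.53 CPM. The part of fibroblast RNA in the Olfml3 result was not tested. Pappa averaged 67.4 CPM in basal and 6.14 CPM in luminal libraries. The basal marker sum was 52.1 and 86.4 CPM in the 2 proestrus luminal libraries, against 45.4 to 88.3 CPM in the other 6. The part of basal RNA in the Pappa result was not tested. Among other genes that rose, Ltbp1, P4ha2 and Unc5b averaged 216, 62.3 and 69.6 CPM in stromal libraries. In luminal libraries they averaged 94.6, 22.5 and 20.7 CPM. Tgif2 averaged 40.3 CPM in basal and 10.4 CPM in luminal libraries. The part of RNA from other cells in these results was not tested either.

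Gpx3, a secreted glutathione peroxidase, had the highest level per transcript length of all genes that rose, 3067 RPKM (counts scaled by library size and exon length) on average in proestrus, followed by Tmem176b with 273 RPKM. It had 6474 and 4647 CPM in proestrus, against 684, 1209 and 1594 CPM as lowest, median and highest value of the other libraries (log2 fold change 2.23 ± 0.24, adjusted p = 0.0094 by edgeR). Diestrus replicate 1 was the lowest of the 8. Of the 20 tested genes of the glutathione and antioxidant list, Gpx3 alone was called and 18 had a negative log2 fold change, with a list median of −0.11. Ggt1, the gamma-glutamyl transferase that splits extracellular glutathione, had 214 and 166 CPM in proestrus against 46.3, 57.7 and 99.1 CPM (1.62 ± 0.15, adjusted p = 0.0043). Cryz, a quinone reductase, had 47.5 and 41.7 CPM against at most 21.8 CPM, and Anpep, an aminopeptidase of the cell surface, chosen after its values were seen, had 163 and 158 CPM against at most 109 CPM.

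Membrane carriers were a further group, put together after the values were seen. Of 221 tested solute carrier genes, 6 rose (2.71%) and 0 fell, against 0.382% and 0.0894% of all genes tested, and the count rests on a name prefix alone. Slc44a4, a choline transporter, had 82.6 and 66.0 CPM in proestrus against 22.5, 33.9 and 36.1 CPM as lowest, median and highest value elsewhere. Slc12a4, a potassium-chloride cotransporter, had 22.2 and 21.3 CPM against at most 13.1 CPM. Slc2a3, a glucose transporter, had 9.03 and 5.95 CPM against at most 3.33 CPM, and Slc16a3, a monocarboxylate transporter, had 4.49 and 2.87 CPM against at most 1.11 CPM. Slc12a4, Slc2a3 and Slc16a3 are more abundant in stromal libraries. Slc12a4 averaged 11.4 CPM in luminal, 122 CPM in stromal and 54.7 CPM in basal libraries. Slc2a3 averaged 2.86 CPM in luminal and 97.9 CPM in stromal libraries, and Slc16a3 1.19 CPM in luminal, 42.3 CPM in stromal and 23.3 CPM in basal libraries. The part of RNA from those cells was not tested. Slc45a4 and Slc50a1 changed by log2 fold changes of 0.59 ± 0.09 and 0.56 ± 0.09. Of the 18 tested members of the separate list of transporters of milk secretion, none was called (edgeR), and 6 reached an unadjusted p under 0.05.

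Other genes that rose included surface and signalling molecules. Prom2, a pentaspan membrane protein of epithelial protrusions, had 502 and 374 CPM in proestrus against 128, 163 and 189 CPM as lowest, median and highest value of the other libraries (log2 fold change 1.44 ± 0.13, adjusted p = 0.0043 by edgeR). Syn2, a synaptic vesicle protein in neurons, had 168 and 82.2 CPM in proestrus against 6.17, 22.03 and 24.4 CPM (2.74 ± 0.38, adjusted p = 0.027), with replicate 1 well above replicate 2. Clca1, a secreted regulator of chloride channels, had 33.1 and 35.2 CPM against at most 19.7 CPM, and reads may be shared with related Clca genes. Tmem176a had 389.6 and 346 CPM and its neighbour Tmem176b 687 and 609 CPM, against at most 206 and 388 CPM. The annotated genes overlap on opposite strands, and the strand setting of the counting is not given in the sources used here. Unc5b, a netrin receptor, Cdon, a hedgehog co-receptor chosen after its values were seen, and Adra1a, an adrenergic receptor, had log2 fold changes of 1.05 ± 0.13, 0.92 ± 0.12 and 0.97 ± 0.13. Slc44a4, Clca1, Esrrb and Adra1a were below the level filter in basal cells. Dnaaf3, needed for assembly of ciliary dynein, changed by 1.28 ± 0.13 and Abca7, a lipid transporter, by 0.94 ± 0.12. Krt77, a keratin chosen after its values were seen, had 8.51 and 7.39 CPM in proestrus against at most 1.88 CPM. Krt77 was also at 98.3 CPM in fat proestrus replicate 1 and 811 CPM in fat diestrus replicate 2, and at most 0.113 CPM in the other fat libraries. Cad, which starts pyrimidine synthesis and was chosen likewise, had 124 and 103 CPM against at most 85.0 CPM.

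Among transcription factors, Esrrb, an orphan nuclear receptor related to the estrogen receptor, had 23.2 and 26.1 CPM in proestrus against 2.99, 4.74 and 9.32 CPM as lowest, median and highest value elsewhere (log2 fold change 2.17 ± 0.32, adjusted p = 0.031 by edgeR). It averaged 8.63 CPM in luminal libraries and 0.173 CPM in basal libraries. Nr4a3, an orphan nuclear receptor of the immediate early class, had 19.8 and 17.95 CPM against at most 13.4 CPM. It averaged 10.3 CPM in luminal and 483 CPM in stromal libraries. Tgif2, a repressor in the transforming growth factor beta pathway, had 19.1 and 20.3 CPM against at most 13.5 CPM. None of the 24 tested immediate early and dissociation stress genes was called by edgeR, although 9 reached an unadjusted p under 0.05, and their median log2 fold change was 0.23. Jund, a subunit of AP-1, came closest, with 775 and 585.5 CPM in proestrus against at most 497 CPM (adjusted p = 0.087). The list stood at 0.47 in proestrus replicate 1 but 0.05 in replicate 2, within the range of −0.39 to 0.27 of the other libraries. In basal cells the list's median log2 fold change was 0.46.

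Of the 11 genes that fell, Hc, complement component C5 (chr2:34983331-35061438), changed most. It had 1.67 and 1.08 CPM in proestrus against 5.29, 7.99 and 13.4 CPM as lowest, median and highest value of the other libraries (log2 fold change −2.57 ± 0.32, adjusted p = 0.018 by edgeR), and was the only called gene among 12 tested complement genes. Sv2c, a synaptic vesicle glycoprotein in neurons, had 3.60 and 3.28 CPM in proestrus against 10.8, 13.5 and 15.9 CPM. Prss22, a serine protease of epithelia, had 43.6 and 36.7 CPM against 81.0, 96.6 and 111 CPM. These genes were separated from every other library. Ak1, the cytosolic adenylate kinase, had 21.5 and 13.5 CPM in proestrus against a lowest value of 41.7 CPM elsewhere, and Fam210b, a mitochondrial membrane protein, had 83.0 and 67.7 CPM against a lowest value of 125 CPM. Ctnnbl1, a protein of the spliceosome, had 100.5 and 81.3 CPM against a lowest value of 154 CPM. Ptgr1, Cpq and Urah changed by log2 fold changes of −0.95, −0.64 and −0.51. Mmp9, a gelatinase chosen after its values were seen, was at 0.417 and 0.308 CPM in proestrus and at 1.497 to 2.82 CPM elsewhere, which is a low level in all luminal libraries.

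The genes by which the hormones of the cycle are usually read did not pass the test. Pgr, the progesterone receptor, had 429.6 and 285 CPM in proestrus against 182, 259 and 364 CPM as lowest, median and highest value elsewhere (log2 fold change 0.47 ± 0.18, adjusted p = 0.30 by edgeR). Esr1, the estrogen receptor, had 223 and 166 CPM against 138, 173 and 211 CPM (0.19 ± 0.17, adjusted p = 0.67). In both the groups overlapped. The reference includes diestrus. In sorted cells the paper reports Pgr as subtly and non-significantly higher in diestrus and proestrus together, a pattern that this contrast does not test. Wnt4, which acts downstream of progesterone, had 91.1 and 83.4 CPM in proestrus against 43.8, 63.2 and 75.9 CPM, without overlap (0.53 ± 0.17, adjusted p = 0.23). Tnfsf11, the progesterone target also called RANKL, had 1.25 and 3.28 CPM against at most 3.86 CPM. Areg, the epidermal growth factor ligand of ductal growth, had 1155 and 645 CPM against 943, 1162 and 1447 CPM (−0.38 ± 0.22, adjusted p = 0.48). None of the 14 tested estrogen-induced genes, the 11 progesterone-induced genes or the 14 hormone receptors was called, with median log2 fold changes of 0.28, 0.18 and 0.18, and 5, 1 and 3 members reached an unadjusted p under 0.05.

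Markers of luminal subsets likewise gave no call. Gata3, a luminal transcription factor, had 206 and 191 CPM in proestrus against 108, 125 and 162 CPM (log2 fold change 0.62 ± 0.14, adjusted p = 0.11 by edgeR). Ly6a, a surface marker found on hormone-sensing cells, had 259 and 272 CPM in proestrus against 166, 358 and 432 CPM, and Cd14, a progenitor marker, 1099 and 1206 CPM against 815, 1287 and 1448 CPM. The groups overlapped in both. Among milk genes, Csn2 had 30.5 and 90.03 CPM in proestrus and 31.03, 159.8 and 1645 CPM elsewhere, the highest in diestrus replicate 1, and Btn1a1, a protein of the milk fat globule, had 202 and 183 CPM against at most 141 CPM (0.91 ± 0.28, adjusted p = 0.22). Epcam and Itga6 (which encodes CD49f), the markers of the sort, had log2 fold changes of −0.08 ± 0.11 and 0.08 ± 0.12.

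Of 35 tested cell cycle genes, 34 had a negative log2 fold change, with a median of −0.39, and none was called by edgeR (3 at an unadjusted p under 0.05). In basal cells the list median was −0.42, and the luminal minus basal difference had a median of −0.02. The list includes Iqgap3, Kif18b, Ncapg, Pbk and Pclaf, which the paper reports from these basal libraries as higher in estrus than in diestrus. Their basal values are thus not independent of the choice of the list. The proestrus luminal libraries were not the lowest. The list median deviation was −0.82 and −0.14 in proestrus, 1.67 and 0.57 in estrus, −0.14 and −0.38 in metestrus, and −0.65 and −1.06 in diestrus, so that only the estrus libraries stood above proestrus in both replicates. Ccne2, a cyclin of the entry into DNA synthesis, had 0.835 and 0.923 CPM in proestrus against 1.41, 1.46 and 1.79 CPM (adjusted p = 0.25). Of 16 tested interferon response genes, 12 were negative and none was called (5 at an unadjusted p under 0.05). Oasl2, an antiviral protein, had 5.43 and 5.64 CPM in proestrus against a lowest value of 7.82 CPM (adjusted p = 0.11), whereas Bst2, a tetherin, had 68.7 and 66.6 CPM against at most 58.8 CPM (adjusted p = 0.095). Of all 22 lists, 15 held no called gene, with medians between −0.39 and 0.32.

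**Figure D4:**
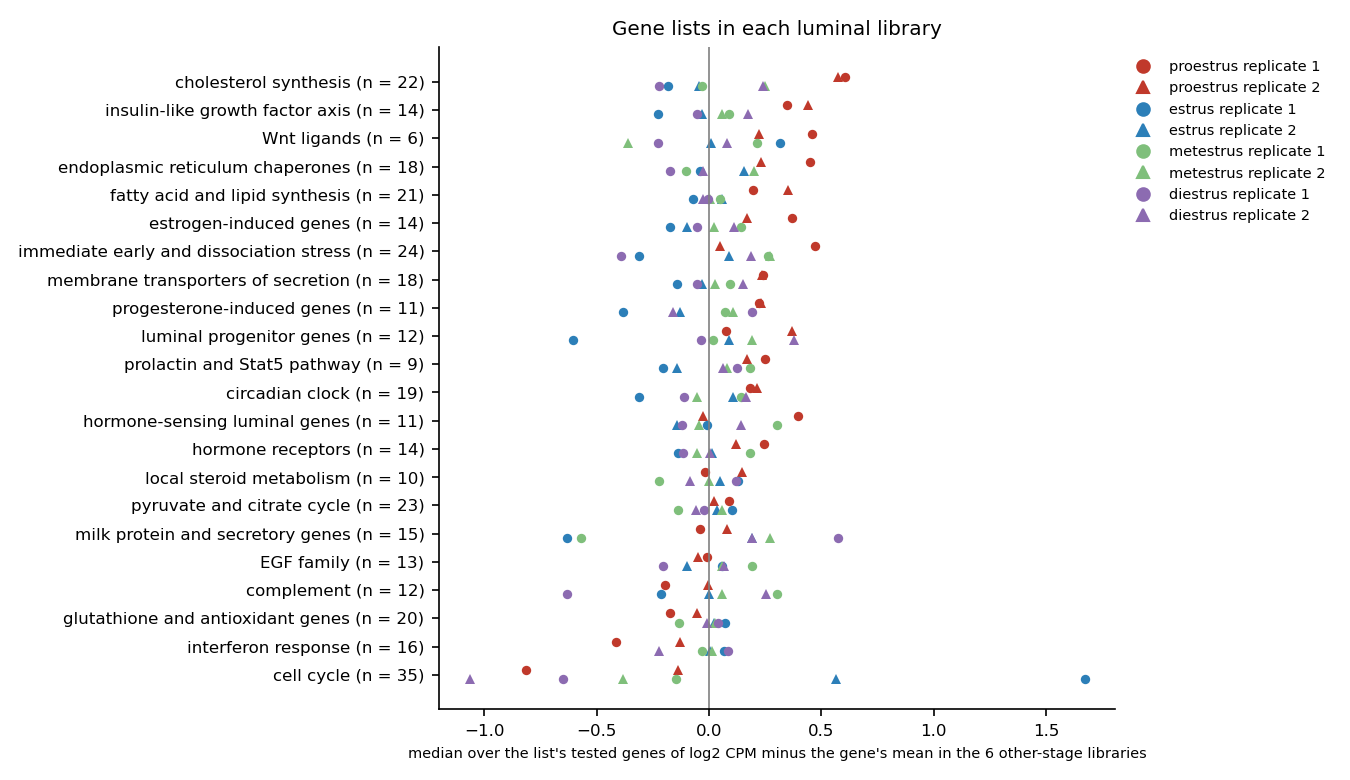
Median deviation of each gene list in each luminal library: log2 CPM minus the gene's mean in the 6 libraries of the other stages, with the number of tested genes in brackets (circles, replicate 1; triangles, replicate 2; red, proestrus). The cholesterol list separates proestrus (0.61 and 0.57) from the other libraries (at most 0.25), and the cell cycle list is highest in estrus replicate 1 (1.67).

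The same contrast was then set against basal cells, the myoepithelial layer beneath, sorted from the same pools of mice. Basal cells alone gave 1 gene higher and 0 lower of 12122 (edgeR), with 538 higher and 490 lower at an unadjusted p under 0.05, and DESeq2 called 20 higher and 7 lower. Of the 47 luminal genes that rose, 38 were tested in basal cells, where 27 had a positive log2 fold change with a median of 0.14 and 0 were called. Of the 11 that fell, 10 were tested, 6 were negative and the median was −0.10. Tested directly, the difference between the luminal and the basal contrast passed for 2 of 13193 genes, 0.0152%, which were Pappa and Olfml3.

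Pappa had a basal log2 fold change of −0.63 ± 0.24, which did not pass within basal cells (adjusted p = 0.56 by edgeR), and the luminal minus basal difference was 4.42 ± 0.41 (adjusted p = 0.00074). On the scale common to all adult libraries it had 19.5 and 18.03 CPM in proestrus luminal cells against 0.23 to 4.69 CPM in luminal cells of other stages, and 54.0 and 43.6 CPM in proestrus basal cells against 44.2 to 104 CPM in basal cells of other stages. The basal levels of proestrus were thus at the low end of a range that began above every luminal value. Olfml3 had a basal log2 fold change of −0.57 ± 0.23 and a difference of 4.34 ± 0.44 (adjusted p = 0.0012), with 14.5 and 6.04 CPM in proestrus luminal cells against at most 0.87 CPM in other luminal libraries, and 3.40 and 3.52 CPM in proestrus basal cells against 3.796 to 7.92 CPM in the other basal libraries.

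With the pool of mice as a block, since libraries of 1 pool share their mice, the difference passed for 5 genes. They were Pappa, Olfml3 and Fam20a (2.45 ± 0.29, adjusted p = 0.015), with Fmnl2, a formin that was not among the called luminal genes (1.51 ± 0.19, adjusted p = 0.023), and, in the other direction, Fam210b (−1.52 ± 0.18, adjusted p = 0.015). For the remaining called genes the difference did not pass in either fit. The test could not decide this for genes with hardly any basal counts. Clca1, Slc44a4 and Krt77 averaged 0.097, 0.042 and 0.0062 CPM in basal libraries. The SE of their difference was 13259, 11.2 and 3.41 on the log2 scale in the fit without a block. Gpx3 was the clearest case of a similar sign, with basal levels of 8.19 and 8.02 CPM in proestrus against 1.62 to 3.48 CPM in other stages and a basal log2 fold change of 1.57 ± 0.23 (adjusted p = 0.16 within basal cells). Luminal Gpx3 was at 5418 and 3854 CPM in those proestrus pools on the same scale, and the part of luminal RNA in the basal values was not tested. Stromal Gpx3 was 980 and 517 CPM in proestrus against 176 to 596 CPM in other stages.

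**Figure D5:**
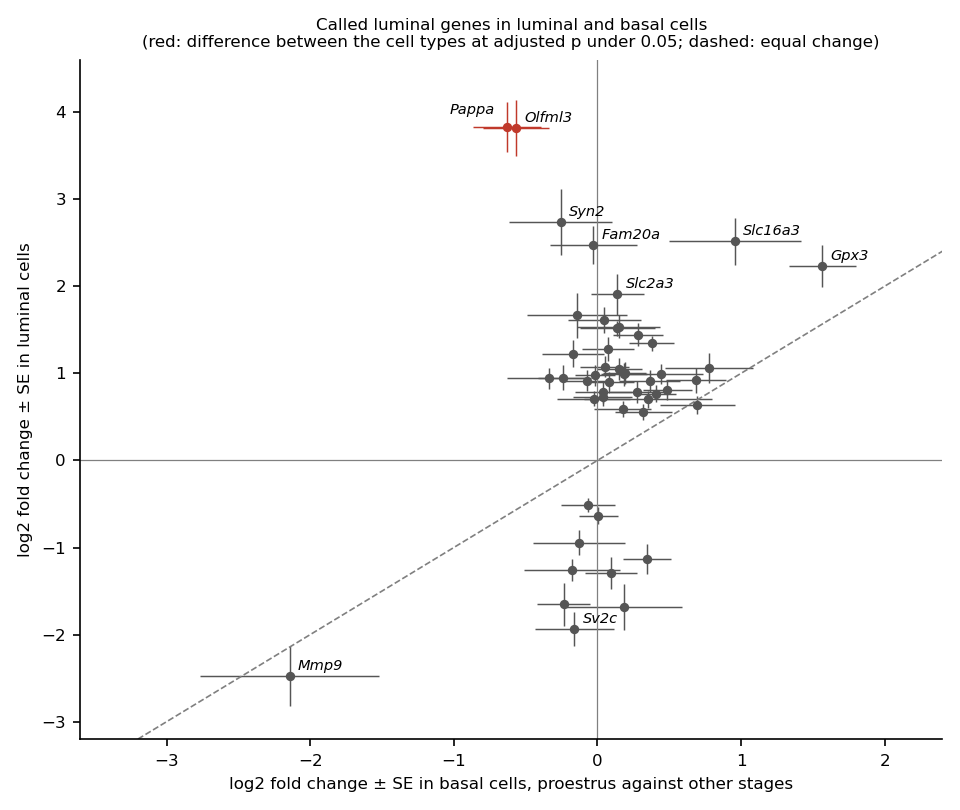
Log2 fold change of proestrus against the other stages in luminal cells (vertical) and in basal cells (horizontal), each with its standard error, for the 48 called luminal genes also tested in basal cells. Pappa and Olfml3 (red) are high in the luminal contrast (3.83 and 3.81) and below 0 in the basal contrast; Gpx3 and Mmp9 lie nearest the dashed line of equal change among the genes with large changes.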

How the data were processed

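RNA-seq libraries of sorted luminal, basal, stromal and fat cells were deposited by the authors as raw gene counts for 25044 genes, made with TopHat2 2.1, Bowtie 1.1.0 and HTSeq on GRCm38 (mm10), per the labels and the study's methods. The annotation release and strand setting are not given in the sources used here. From the counts, genes above 1 CPM in at least 2 libraries were tested with edgeR 4.0.16 (TMM, quasi-likelihood F-test, Benjamini-Hochberg 0.05) in R 4.3.3, with 4 stage groups and the contrast of proestrus minus the mean of the other stages. The luminal minus basal difference was fitted over 16 libraries. Libraries of the same number and stage share their mice, and their deviations correlated between luminal and basal cells at 0.15, 0.17, −0.02 and 0.18, so a fit with the pool as a block is given. SE is the log2 fold change divided by the root of F. RPKM used annotated exon length. Alternatives were other scaling, no filter, DESeq2 1.42.0, replicate blocks, joint and 2-group fits, single libraries left out, and GC and length offsets. Genes were named if they were called, did not overlap and averaged 2 or more in log2 CPM (up to 25 per direction by size), as the 4 smallest adjusted p of each list, or as controls, and others are marked as chosen after their values were seen. Genes with names of the predicted type were counted only, except 5430419D17Rik, which had the largest change. The members and lists were chosen with earlier results of these data known. Puberty libraries were not used here. The scripts were tested on simulated data. The luminal stage test recovered 84% of the genes changed by 1 on the log2 scale, and 8.9% of its calls were unchanged genes. That share exceeded the adjusted p threshold of 0.05. The test of the luminal minus basal difference recovered 45% of such genes, and 2.8% of its calls were unchanged genes. Changes were planted only in genes averaging above 4 CPM, while some called genes averaged less. The simulated stages otherwise had equal means and no GC skew, so these rates need not hold for the real libraries.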

Additional observations from a re-analysis of the deposited data

Results flagged for a closer look

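The proestrus contrast of 2 genes differed between luminal and basal cells by a test of the difference itself. Pappa differed by 4.42 ± 0.41 on the log2 scale (SE, adjusted p = 0.00074 by edgeR), with 3.83 in luminal cells and −0.63 in basal cells. Olfml3 differed by 4.34 ± 0.44 (adjusted p = 0.0012 by edgeR), with 3.81 in luminal cells and −0.57 in basal cells. Both passed in all 23 alternatives, in which the difference was between 4.18 and 4.89 for Pappa and between 3.57 and 4.84 for Olfml3.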

How the results depend on the processing

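All 58 called genes kept their direction in the 17 alternatives, but the counts did not hold. DESeq2 called 229 genes higher and 66 lower, and 74 for the luminal minus basal difference. Testing all genes irrespective of level, edgeR gave 605 higher, 254 lower and 178 for the difference. With replicate number as a block the counts were 34 higher and 6 lower, although same-numbered luminal libraries were not paired (correlations of −0.33 to 0.30), and with the pool of mice as a block the difference gave 5. GC and length offsets with the replicate block, chosen after seeing the data, gave 25 higher and 6 lower. Leaving out 1 library gave 0 to 165 higher, 0 to 35 lower and 2 to 9 for the difference, with 9 without basal diestrus replicate 2 and 4 without basal estrus replicate 2. The joint fit of 32 libraries called 43 and 8, of which 25 and 3 were among the 47 and 11. The causes were not tested. With 2 proestrus pools, a gene that did not pass is not shown to be unchanged.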

Other observations

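Of the 11 genes that were lower in proestrus luminal cells, 5 lie on chromosome 2 (Hc, Mmp9, Ctnnbl1, Ak1 and Fam210b), as do 2 of the 47 that were higher and 7.95% of the tested genes. This was seen after the values were known and was not tested.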
